A study of Mus musculus with 16 samples.

Results

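The genes described here are 40 genes of hepatic stellate cells and of the liver matrix other than the fibrillar collagens, chosen by symbol from 55487 rows of a liver expression table. The rule uses gene names and no measured value, though the 40 were chosen with earlier results of these data known. Each symbol matched 1 row, all 40 passed the filter on low counts, and none was listed at 0 in any library. By assigned role, 9 were listed under quiescent stellate identity, 3 under activation and contraction, 10 as matrix proteins and 4 as basement membrane chains. A further 5 are proteases or their inhibitors, 4 process or cross-link collagen, and 5 are ligands or receptors of TGF-beta. The roles are not exclusive: Pdgfrb and Ngfr, listed under identity, are also found in activated stellate cells.

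Liver RNA of mice fed a high-fat diet (HFD) was sequenced in 16 libraries after polyA enrichment. There were 6 Flpo libraries, which the series text names LJ1J27b for the 7b isoforms of the JNK kinases, 5 Cre libraries, named LJ1J27a for the 7a isoforms, and 5 GFP control libraries, named LJ1J2control. All 16 are labelled liver, strain C57/Bl6J and genotype J1 J2 lf/lf, so the GFP controls carry the same conditional alleles and ate the same diet. The series text calls the mice hepatocyte-specific, so stellate cells were not the cells named for recombination. The labels give no age or sex. They do not say outright that each library is a separate mouse, and the spread that the p-values rest on is that between libraries, which may be technical.

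Hepatic stellate cells lie between hepatocytes and the sinusoidal endothelium and store retinol as esters. On liver injury they lose these stores, take on contractile proteins and lay down matrix, a change that TGF-beta drives. Portal fibroblasts, smooth muscle and mesothelium share many of these genes, and smooth muscle and pericytes make Acta2, Tagln, Des and Rgs5. Endothelium also makes Vim, Sparc, Timp3, Col4a1 and Col4a2. Hepatocytes make much of Fn1 and Col18a1, and Ecm1 and Tgfbr1 come partly from hepatocytes or other cells. In whole liver, fewer cells of a type and less RNA per cell cannot be told apart.

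The promoters of Lrat and Mmp14 are shown because these were the members whose Flpo and Cre libraries did not overlap. Of all genes, 4.52% had every Flpo library above every Cre library and 3.32% every Flpo library below. The stretch that the Col4a1 and Col4a2 promoter windows share is shown because this pair starts head to head. The first exons of the pair overlap on opposite strands. Sequences are those of RefSeq on GRCm38.p6, 5′ to 3′ on the strand of the gene, and capitals mark the GC box GGGCGG or its reverse complement. The Lrat window spans chr3:82903925-82904224 on the minus strand, with 60.7% G or C and 2 GC boxes. The Mmp14 window spans chr14:54431348-54431647 on the plus strand, with 56.0% G or C and 2 GC boxes. The shared stretch of 78 bases spans chr8:11312777-11312854 and is printed on the plus strand, that of Col4a2.
Lrat: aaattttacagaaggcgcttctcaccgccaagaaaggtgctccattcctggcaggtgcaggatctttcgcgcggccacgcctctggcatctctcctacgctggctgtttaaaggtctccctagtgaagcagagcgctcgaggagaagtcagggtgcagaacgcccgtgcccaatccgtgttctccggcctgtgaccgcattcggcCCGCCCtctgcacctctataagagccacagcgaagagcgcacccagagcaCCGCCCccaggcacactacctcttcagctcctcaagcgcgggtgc
Mmp14: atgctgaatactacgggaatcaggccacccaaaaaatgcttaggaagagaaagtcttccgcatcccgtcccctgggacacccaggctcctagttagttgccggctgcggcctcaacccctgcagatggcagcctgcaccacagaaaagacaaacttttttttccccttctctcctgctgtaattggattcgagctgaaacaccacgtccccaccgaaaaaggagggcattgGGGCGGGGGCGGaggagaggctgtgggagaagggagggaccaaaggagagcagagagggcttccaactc
Col4a1 and Col4a2 shared: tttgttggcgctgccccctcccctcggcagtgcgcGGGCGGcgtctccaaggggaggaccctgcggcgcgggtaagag
Promoter windows of 300 bases, from 250 bases before to 50 after a start, were found for 27 members, 31 windows in all. On either strand, the GC box was in 17 of the 31, against 35.7% of 32851 windows of mouse genes. The AP-1 motif TGANTCA, bound by Jun and Fos proteins, was in 1 (Ecm1), against 7.81% of all windows, and the cyclic AMP response element TGACGTCA in 0, against 1.79%. The TATA motif TATAAA was in 4 (Ecm1, Postn, Tgfb2 and Vim), against 13.6%. A match describes letters in these windows only.

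Total estimated counts were 27929393 to 36043322 per library. The hepatocyte markers Alb, Ttr, Apoa1, Serpina1c and Cyp2e1 summed to 85617 to 103043 CPM (counts scaled to library size with TMM factors) in Flpo, 95271 to 114732 CPM in Cre and 82683 to 105154 CPM in GFP libraries, as the liver label has it. The 6 defining stellate markers Lrat, Reln, Colec11, Cygb, Hand2 and Des summed to 73.2 to 107 CPM in Flpo, 55.7 to 83.2 CPM in Cre and 67.6 to 88.2 CPM in GFP. Single libraries stood apart over the members. Cre replicate 1 was the highest Cre library for 20 of 40 members, a larger share than the 20.3% of all genes tested. Flpo replicate 4 was the highest Flpo library for 17 of 40, a larger share than the 17.8% of genes. GFP replicate 3 was the lowest GFP library for 17 of 40, a larger share than the 26% of genes. Values without these libraries stand beside the counts below.

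On the deposited TPM scale, which allows for gene length, Fn1 (fibronectin) and Col18a1 (collagen XVIII, the source of endostatin) were highest, at 240 ± 44.1 and 237 ± 29.8 TPM (SD over 16 libraries). These neighbours did not differ beyond their spread. Ecm1, a matrix protein that holds latent TGF-beta in check in liver, followed at 90.4 ± 18.01 TPM, and the small proteoglycan Dcn (decorin) at 81.3 ± 20.1 TPM, again within their spread. Its relative Bgn (biglycan) stood at 38.1 ± 8.32 TPM, with its highest library at 49.2 TPM and the lowest Ecm1 library at 50.0 TPM. Sparc and Mmp14 were level, at 19.4 ± 5.57 and 19.2 ± 4.46 TPM. Lrat, the enzyme that makes retinyl esters, stood at 1.68 ± 0.576 TPM, and Acta2, the smooth muscle actin of activated stellate cells, at 0.921 ± 1.05 TPM. The lowest were Tgfb2 at 0.190 ± 0.286 TPM and Lox, a lysyl oxidase, at 0.0973 ± 0.0386 TPM.

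**Figure D1:**
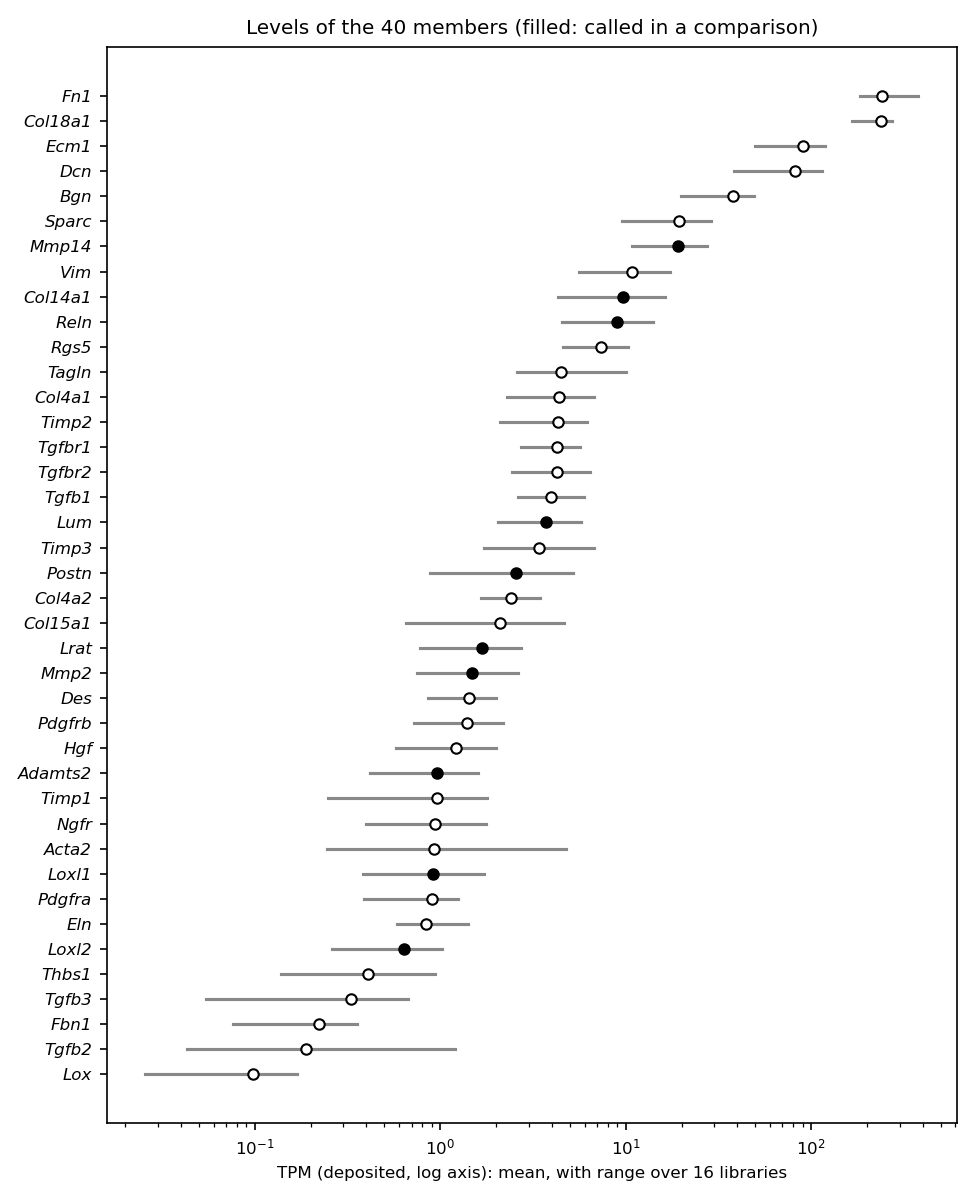
Mean TPM of each of the 40 members over 16 libraries (points, log axis) with the lowest and highest library (lines). Filled points are the 10 members called in at least 1 comparison, which lie between Mmp14 at 19.2 TPM and Loxl2 at 0.637 TPM.

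Members were called in the 2 comparisons that have Cre libraries on one side and in neither direction in Flpo against GFP. A gene is called here at an adjusted p under 0.05 in edgeR's quasi-likelihood test over 13905 genes. In Flpo against Cre, 6 members were higher and 1 lower, or 17.5% of members, against 13.7% of all genes (7.45% higher and 6.26% lower). In Cre against GFP, 5 were lower and 0 higher, or 12.5% of members, against 9.55% of all genes (5.58% lower and 3.97% higher). In Flpo against GFP no member was called, against 0.0288% of all genes, which is 4 genes. At an unadjusted p under 0.05 that comparison held 3 members higher and 6 lower. That is 9 of 40, a larger share than the 9.73% of all genes (1353 of 13905). DESeq2 and limma-voom called 0 members there. All 40 members overlapped between the Flpo and GFP libraries, while 0.676% of genes had every Flpo library above and 0.87% every Flpo library below every GFP library.

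The median log2 fold change of the members was 0.29 in Flpo against Cre, where the median of all genes was 0.00, and 28 of 40 lay above 0. It was -0.25 in Cre against GFP, also beside 0.00 for all genes, with 33 of 40 below 0. In Flpo against GFP it was 0.01, beside -0.01 for all genes, with 19 of 40 below 0. Scaling to library totals alone moved the median of all genes to 0.13 in Flpo against Cre and -0.14 in Cre against GFP, with the members at 0.43 and -0.40. Each group serves in 2 of the 3 comparisons, so their values are not independent of each other.

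**Figure D2:**
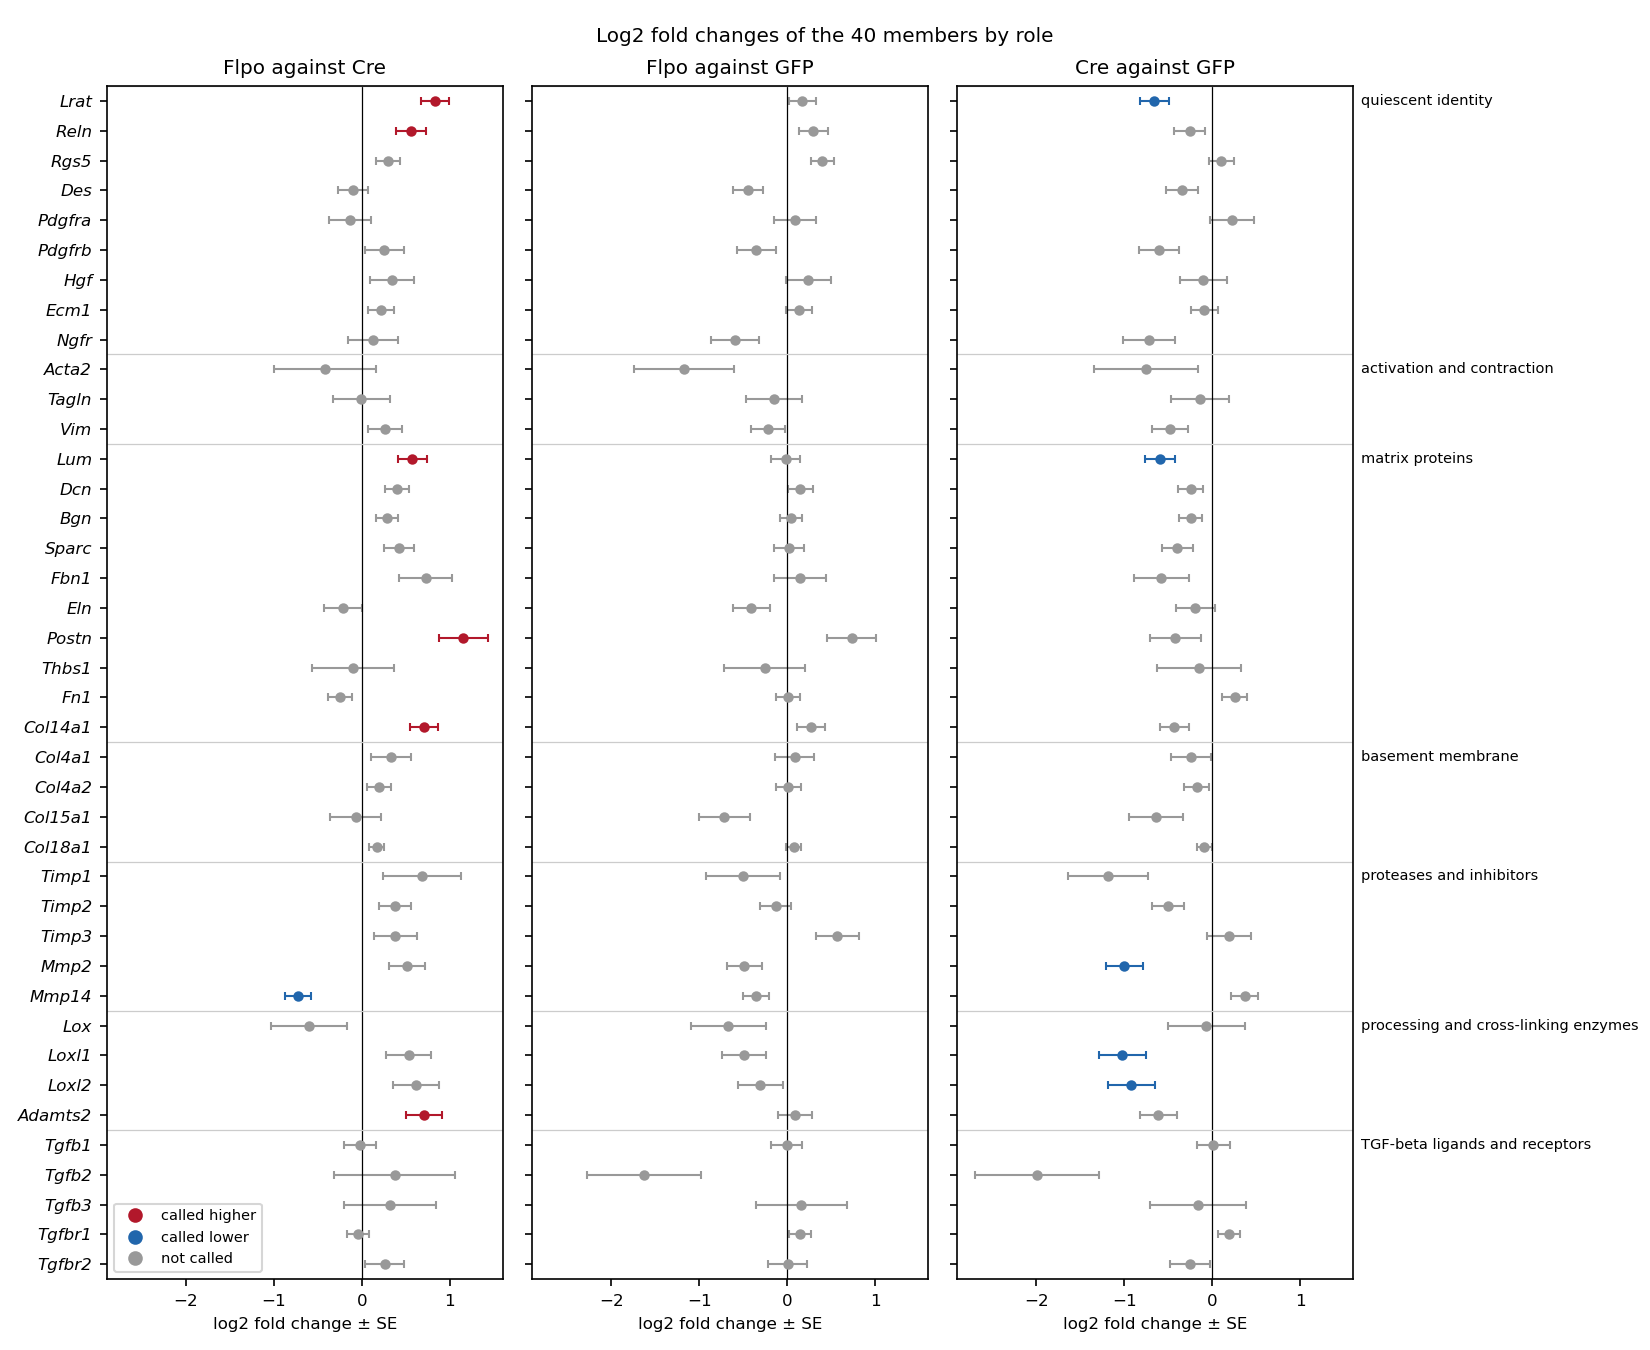
Log2 fold change with its SE for the 40 members by role, in Flpo against Cre, Flpo against GFP and Cre against GFP. Red and blue mark members called higher and lower. The 6 red and 1 blue points are in Flpo against Cre and the 5 blue points in Cre against GFP, and Flpo against GFP has none.

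The Cre against GFP count moved with single libraries. Without Cre replicate 1 it was 9, with Pdgfrb, Vim, Sparc, Col14a1 and Adamts2 added and Lum lost. It was 2 (Lrat and Mmp2) when Cre replicate 2, Cre replicate 3 or GFP replicate 1 was left out. It was 3 when the library left out was Cre replicate 5, Flpo replicate 2, GFP replicate 2 or GFP replicate 4. Without GFP replicate 3 it was 5. The Flpo against Cre count was 11 without Cre replicate 1, and 4 (Lrat, Postn, Col14a1 and Mmp14) without Cre replicate 2, Cre replicate 3, Flpo replicate 4 or Flpo replicate 5. The expression of 16 circadian clock genes differed in range between the groups: its first principal component, scaled, was 0.18 to 1.4 in Flpo, -1.64 to -0.162 in Cre and -0.772 to 0.865 in GFP. The Flpo and Cre scores did not overlap, so clock score and group cannot be told apart in that comparison. With this clock score as a covariate no member was called in any comparison, and calls over all genes also fell, as counted in the last section. The members' median log2 fold change was then 0.29 in Flpo against Cre, with 28 of 40 above 0, and -0.25 in Cre against GFP, with 29 of 40 below 0.

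Among the 9 quiescent identity genes, Lrat was lower in Cre than in both other groups, and Reln was higher in Flpo than in Cre. Lrat is at chr3:82892579-82903973 (minus strand) (GRCm38). It had 7.42, 8.43 and 10.99 CPM as lowest, median and highest Flpo library. The Cre libraries had 5.19, 4.88, 4.63, 6.41 and 3.88 CPM, and the GFP libraries 6.43, 8.19, 7.10, 9.32 and 8.43 CPM. Every Cre library was below every Flpo and every GFP library, although the highest Cre and the lowest GFP library nearly met. Its log2 fold change was 0.83 in Flpo against Cre (SE 0.16, adjusted p = 0.00187), -0.66 in Cre against GFP (SE 0.16, adjusted p = 0.0166) and 0.17 in Flpo against GFP (SE 0.15, adjusted p = 0.759). Of all genes, 4.52% had every Flpo library above every Cre library, and 4.64% every Cre library below every GFP library. With the clock score Lrat was at 0.47 in Flpo against Cre (adjusted p = 0.751) and at -0.47 in Cre against GFP (adjusted p = 0.239).

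Reln encodes reelin, a secreted glycoprotein that marks stellate cells in liver. It is at chr5:21884454-22344702 (minus strand). Flpo libraries ran from 28.4 to 45.0 CPM with a median of 36.9 CPM. Cre libraries had 30.2, 24.2, 19.8, 29.9 and 23.0 CPM, and GFP libraries 37.9, 37.8, 19.9, 28.7 and 27.7 CPM. The Flpo and Cre ranges overlapped only through the lowest Flpo library, and GFP overlapped both. The log2 fold change was 0.56 in Flpo against Cre (SE 0.17, adjusted p = 0.0359). That call was lost without any 1 of Cre replicates 2, 3 and 5 and Flpo replicates 4, 5 and 6 (lowest log2 fold change over all alternatives 0.47). In Cre against GFP it was -0.26 (SE 0.18, adjusted p = 0.397).

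The other 7 quiescent identity genes were not called. Rgs5, a regulator of G protein signalling found in pericytes, had the smallest p of any member in Flpo against GFP. Its Flpo libraries ran from 23.7 to 32.0 CPM with a median of 29.1 CPM, and its GFP libraries had 19.3, 18.9, 22.2, 21.1 and 25.7 CPM. The 2 groups overlapped, and the log2 fold change of 0.40 did not pass (SE 0.13, adjusted p = 0.357). Des (desmin, the intermediate filament of muscle and of rodent stellate cells) had 2.40 to 3.60 CPM in Flpo with a median of 3.15 CPM, against 3.58, 3.55, 4.66, 4.14 and 5.02 CPM in GFP. Only the highest Flpo library reached the GFP range, and the log2 fold change was -0.44 (SE 0.17, adjusted p = 0.422).

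The receptors for PDGF, which drives stellate cell growth, were not called in Cre against GFP: Pdgfrb stood at a log2 fold change of -0.60 (adjusted p = 0.110) and Pdgfra at 0.23 (adjusted p = 0.634). Pdgfrb had 8.94 CPM in Cre replicate 1 and 4.14 to 4.45 CPM in the other Cre libraries, against 5.90 to 9.79 CPM in GFP. Without Cre replicate 1 Pdgfrb was called lower in Cre than in GFP, at -0.89 (adjusted p = 0.00928). Ngfr, the p75 neurotrophin receptor, had 1.26 to 3.15 CPM in Cre and 2.16 to 4.78 CPM in GFP (adjusted p = 0.132). Hgf, the hepatocyte growth factor, and Ecm1 had log2 fold changes between -0.10 and 0.34 in the 3 comparisons.

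**Figure D3:**
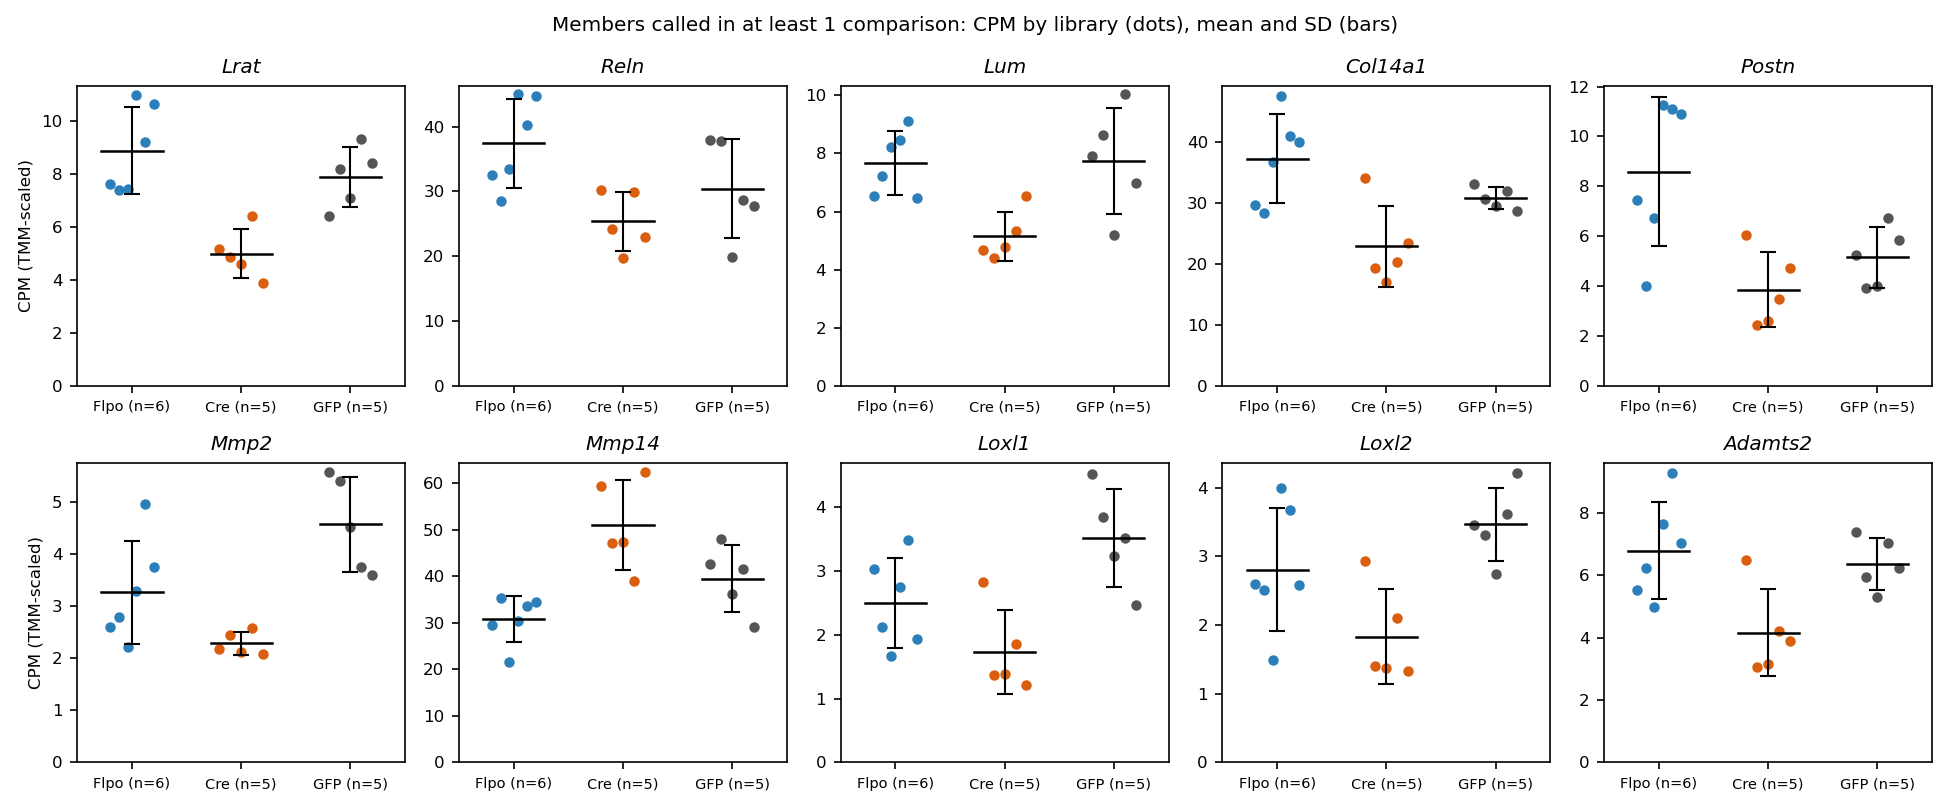
CPM of the 10 members called in at least 1 comparison, by library (points) with mean and SD (bars), for Flpo, Cre and GFP. All 5 Cre libraries lie below all GFP libraries for Lrat and Mmp2, and above all Flpo libraries for Mmp14. Of all genes, 4.64% had every Cre library below every GFP library, and 3.32% every Cre library above every Flpo library.

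None of the 3 genes listed under activation, Acta2, Tagln and Vim, was called in any comparison by edgeR, DESeq2 or limma-voom. At an unadjusted p under 0.05 there was 1, Vim in Cre against GFP. Of all genes, edgeR called 13.7% in Flpo against Cre, 9.55% in Cre against GFP and 0.0288% in Flpo against GFP. With 3 genes, a count of 0 does not set this list apart from all genes. Acta2 had 0.782, 0.833 and 1.28 CPM as lowest, median and highest Flpo library. The Cre libraries had 1.14, 1.51, 1.16, 1.59 and 0.942 CPM, and the GFP libraries 0.349, 0.546, 0.905, 1.499 and 7.39 CPM. GFP replicate 5 was far above all others, and the remaining GFP libraries enclosed the Flpo values. Its log2 fold change was -1.17 in Flpo against GFP (SE 0.57, adjusted p = 0.521) and -0.75 in Cre against GFP (SE 0.59, adjusted p = 0.478). Without GFP replicate 5 both turned round, to 0.20 (adjusted p = 0.868) and 0.62 (adjusted p = 0.355), so the sign of the Acta2 difference rested on that library.

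Tagln (transgelin, an actin-binding protein of smooth muscle) also peaked in GFP replicate 5, at 10.02 CPM, beside 2.46 to 4.21 CPM in the other GFP libraries, 3.13 to 6.56 CPM in Flpo and 3.34 to 7.05 CPM in Cre. Its log2 fold changes were -0.01 in Flpo against Cre, -0.15 in Flpo against GFP and -0.14 in Cre against GFP. Without GFP replicate 5 the values against GFP were 0.34 for Flpo and 0.34 for Cre. Smooth muscle markers peaked in the same library: Myh11, the smooth muscle myosin, had 7.33 CPM there, beside 0.273 to 1.53 CPM in the other GFP libraries, 0.412 to 1.80 CPM in Flpo and 1.37 to 2.499 CPM in Cre. Cnn1 (1.62 CPM), Lmod1 (1.75 CPM) and Actg2 (0.519 CPM) were also at their highest there, while Smtn (4.31 CPM) and Mylk (56.8 CPM) were within the range of the other libraries. The 6 smooth muscle markers summed to 54.2 to 76.1 CPM in Flpo, 40.8 to 73.3 CPM in Cre and 46.5 to 73.5 CPM in GFP. Most of this was Mylk, which other cells make too. Of the 4 markers tested, 0 were called by edgeR, DESeq2 or limma-voom, or reached an unadjusted p under 0.05. With 4 genes, a count of 0 called does not set these markers apart from all genes. Their part in the Acta2 and Tagln values was not tested.

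Vim, the vimentin filament of mesenchymal cells, had 12.4 to 20.3 CPM in Flpo with a median of 17.8 CPM. The Cre libraries had 22.5, 12.2, 11.1, 14.4 and 11.9 CPM, and the GFP libraries 24.8, 15.97, 14.5, 25.5 and 19.5 CPM. Cre replicate 1 lay within the GFP range and the other 4 Cre libraries below it. In log2 fold change it stood at -0.48 in Cre against GFP (SE 0.20, adjusted p = 0.152), and -0.70 without Cre replicate 1, where it was called (adjusted p = 0.0228).

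**Figure D4:**
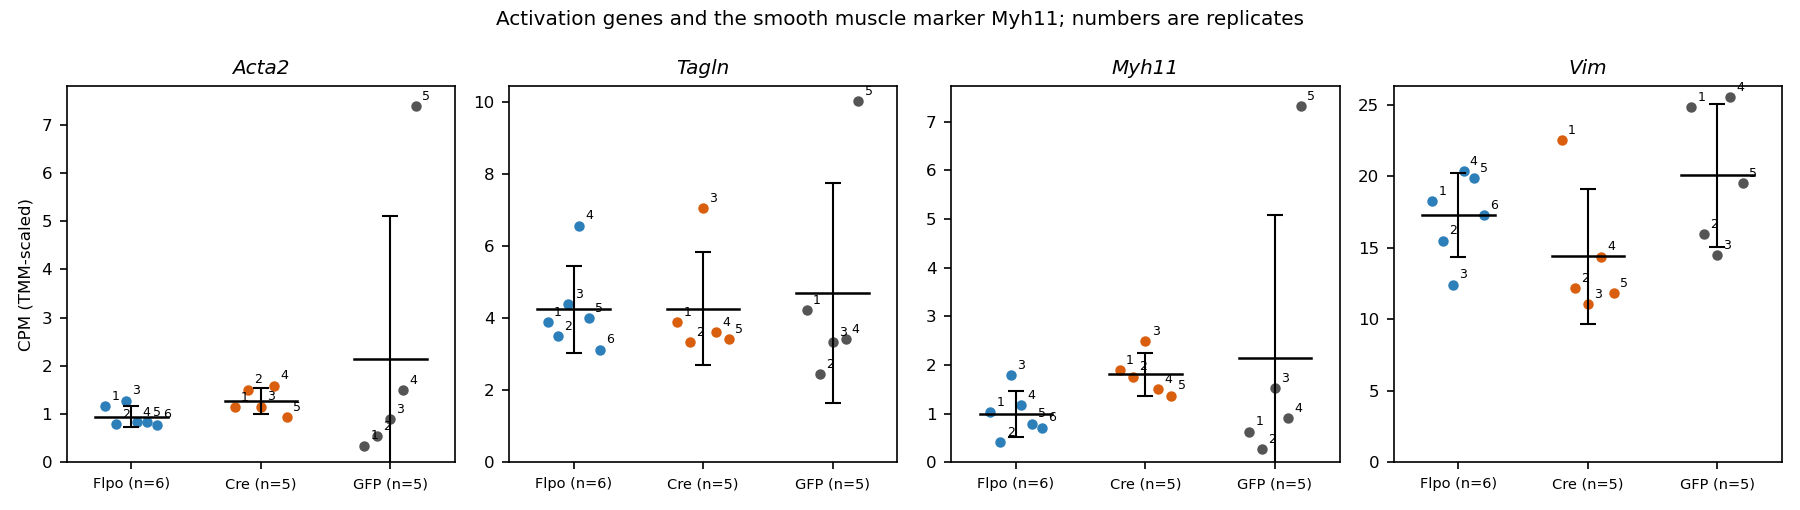
CPM of Acta2, Tagln, the smooth muscle marker Myh11 and Vim by library, with mean and SD (a bar that would pass below 0 is cut at 0) and replicate numbers beside the points. GFP replicate 5 is highest for Acta2 (7.39 CPM), Tagln (10.02 CPM) and Myh11 (7.33 CPM).

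Of the 10 matrix proteins, Lum was lower in Cre than in GFP, and Lum, Col14a1 and Postn were higher in Flpo than in Cre. Lum (lumican, a proteoglycan that spaces collagen fibrils) is at chr10:97565128-97572703 (plus strand). Flpo libraries ran from 6.46 to 9.11 CPM with a median of 7.72 CPM. Cre libraries had 4.69, 4.42, 4.77, 5.32 and 6.55 CPM, and GFP libraries 7.92, 8.63, 5.18, 10.04 and 6.97 CPM. The highest Cre library was above the lowest Flpo libraries, and GFP replicate 3 lay among the Cre libraries. On the log2 scale it was at 0.57 in Flpo against Cre (SE 0.17, adjusted p = 0.0272) and -0.59 in Cre against GFP (SE 0.17, adjusted p = 0.0373). The first call was lost without Cre replicates 1, 2 or 3 or Flpo replicates 3, 4 or 5. The second was lost without GFP replicates 1, 2 or 4, Cre replicates 1, 2 or 3 or Flpo replicate 2. With limma-voom, 0 of the 10 matrix proteins, Lum among them, were called in Cre against GFP.

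Col14a1, a collagen that sits on the surface of fibrils, is at chr15:55307750-55520803 (plus strand). Its Flpo libraries ran from 28.4 to 47.7 CPM with a median of 38.4 CPM. Cre libraries had 34.1, 19.4, 17.1, 20.4 and 23.4 CPM, and GFP libraries 33.1, 30.7, 29.5, 32.0 and 28.8 CPM. Cre replicate 1 stood in the Flpo and above the GFP range, while the other 4 Cre libraries were below both. The log2 fold change was 0.70 in Flpo against Cre (SE 0.16, adjusted p = 0.00683), a call that held with each library left out. In Cre against GFP it was -0.43 (SE 0.17, adjusted p = 0.113), and without Cre replicate 1 it was -0.62 and called.

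Postn (periostin, a matricellular protein of fibrotic tissue) is at chr3:54361109-54391037 (plus strand) and had the widest difference of any member in Flpo against Cre. Flpo libraries ran from 4.02 to 11.3 CPM with a median of 9.19 CPM, against 6.04, 2.44, 2.61, 3.49 and 4.71 CPM in Cre. GFP libraries had 5.26, 3.92, 4.001, 6.74 and 5.83 CPM. Flpo replicate 2 was the low Flpo library and lay within the Cre and GFP ranges. Its log2 fold change was 1.15 in Flpo against Cre (SE 0.28, adjusted p = 0.0105), and this call held with each library left out. In Flpo against GFP it was 0.73 (SE 0.28, adjusted p = 0.422), and in Cre against GFP -0.42 (SE 0.29, adjusted p = 0.409).

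The other matrix proteins were not called by edgeR or limma-voom, and DESeq2 called 1 of them, Dcn in Flpo against Cre (adjusted p = 0.0498). Fn1 was the member with every Cre library above every GFP library, as 3.56% of all genes were. The Cre libraries had 1294, 1420, 1372, 1355 and 1291 CPM, and the GFP libraries 1151, 1072, 1145, 1052 and 1211 CPM. Flpo replicate 1 held 1767 CPM, and the other 5 Flpo libraries 914 to 1138 CPM. The log2 fold change of 0.26 in Cre against GFP did not pass with all libraries (SE 0.14, adjusted p = 0.287). Without Flpo replicate 1, Fn1 was called higher in Cre than in GFP at 0.27 (adjusted p = 0.0396) and lower in Flpo than in Cre at -0.44 (adjusted p = 0.00139). Scaling to library totals gave 0.12 in Cre against GFP.

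Dcn had 93.3 to 132 CPM in Flpo, 59.9 to 106 CPM in Cre and 83.8 to 117 CPM in GFP. Its log2 fold change in Flpo against Cre was 0.40 (SE 0.14, adjusted p = 0.0677). Bgn, Sparc (osteonectin, a collagen-binding glycoprotein) and Fbn1 (fibrillin-1, the backbone of microfibrils) had log2 fold changes of 0.29, 0.42 and 0.72 in the same comparison, with adjusted p of 0.143, 0.111 and 0.130. Eln (elastin) and Thbs1 (thrombospondin-1, an activator of latent TGF-beta) lay at -0.21 and -0.10 there. Their values in Cre against GFP were -0.19 and -0.15.

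No basement membrane chain was called in any comparison by edgeR, DESeq2 or limma-voom. Of all genes, edgeR called 13.7% in Flpo against Cre, 9.55% in Cre against GFP and 0.0288% in Flpo against GFP. With 4 chains, a count of 0 does not set them apart from all genes. The chains' log2 fold changes were -0.07 to 0.33 in Flpo against Cre, -0.71 to 0.09 in Flpo against GFP and -0.64 to -0.09 in Cre against GFP. Col4a1 and Col4a2 are the chains of the common type IV collagen. Col4a1 had 18.2 to 33.2 CPM in Flpo, 15.3 to 29.4 CPM in Cre and 13.5 to 30.1 CPM in GFP, and Col4a2 had 11.5 to 16.8, 11.5 to 12.02 and 9.32 to 17.1 CPM in the same order. Col18a1 kept within 879 to 1055 CPM in Flpo, 742 to 992 CPM in Cre and 866 to 994 CPM in GFP. Col15a1, a collagen of capillary basement membranes, had 12.8 CPM in GFP replicate 1 and 6.48 to 8.09 CPM in the other GFP libraries, with 3.02 to 8.37 CPM in Flpo and 2.39 to 7.65 CPM in Cre. Its unadjusted p was 0.0243 in Flpo against GFP and 0.0498 in Cre against GFP, with adjusted p of 0.440 and 0.205.

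Among proteases and inhibitors, the gelatinase Mmp2 was lower in Cre than in GFP, and Mmp14, the membrane-bound protease that activates pro-Mmp2 at the cell surface, was lower in Flpo than in Cre. Mmp2 is at chr8:92827291-92853420 (plus strand). Cre libraries had 2.18, 2.44, 2.13, 2.59 and 2.08 CPM, and GFP libraries 5.58, 5.39, 4.52, 3.75 and 3.60 CPM. Flpo libraries ran from 2.22 to 4.95 CPM with a median of 3.03 CPM. All Cre libraries were below all GFP libraries, as in 4.64% of all genes, and the Flpo libraries lay between and across both. In log2 fold change it stood at -0.998 in Cre against GFP (SE 0.21, adjusted p = 0.00673), a call that held with each library left out. It was -0.49 in Flpo against GFP (SE 0.20, adjusted p = 0.442) and 0.51 in Flpo against Cre (SE 0.21, adjusted p = 0.112). With the clock score the Cre against GFP value was -1.03 (adjusted p = 0.0562).

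Mmp14 is at chr14:54431612-54445364 (plus strand). Its Flpo libraries ran from 21.7 to 35.3 CPM with a median of 32.0 CPM. Cre libraries had 59.4, 47.1, 47.4, 38.9 and 62.4 CPM, and GFP libraries 42.7, 48.0, 36.1, 41.4 and 29.0 CPM. Every Flpo library was below every Cre library, as in 3.32% of all genes, and GFP lay between and across both. On the log2 scale it was at -0.73 in Flpo against Cre (SE 0.15, adjusted p = 0.00297), a call that held with each library left out. Against GFP it was -0.36 for Flpo (SE 0.15, adjusted p = 0.447) and 0.37 for Cre (SE 0.15, adjusted p = 0.143). The clock score left -0.31 in Flpo against Cre (adjusted p = 0.871).

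Of the tissue inhibitors of metalloproteases, Timp1 was scarce and had every Cre library below every GFP library, as 4.64% of all genes did. Its Cre libraries had 0.322, 0.287, 0.298, 0.301 and 0.196 CPM, and its GFP libraries 0.507, 0.819, 0.765, 0.815 and 0.324 CPM. The highest Cre and lowest GFP library were almost level, and the log2 fold change of -1.18 did not pass (SE 0.46, adjusted p = 0.115). Timp2 stood at -0.51 in Cre against GFP (adjusted p = 0.0951). Timp3, which binds to the matrix, was at 0.57 in Flpo against GFP (adjusted p = 0.467), with 11.1 to 24.0 CPM in Flpo and 7.03 to 15.1 CPM in GFP.

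The lysyl oxidase relatives Loxl1 and Loxl2, which cross-link elastin and collagen, were lower in Cre than in GFP, and Adamts2, the N-propeptidase of procollagen, was higher in Flpo than in Cre. Loxl1 is at chr9:58287738-58313186 (minus strand). It had 2.83, 1.36, 1.38, 1.86 and 1.22 CPM in Cre, against 4.53, 3.86, 3.24, 3.52 and 2.46 CPM in GFP. Flpo libraries ran from 1.67 to 3.48 CPM with a median of 2.44 CPM. Cre replicate 1 alone reached into the GFP range, and Flpo overlapped both groups. The log2 fold change was -1.02 in Cre against GFP (SE 0.27, adjusted p = 0.0214). That call was lost without GFP replicate 1 or Cre replicates 2, 3 or 5.

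Loxl2 is at chr14:69609068-69695834 (plus strand). Cre libraries had 2.93, 1.40, 1.38, 2.11 and 1.33 CPM, against 3.45, 3.31, 2.75, 3.62 and 4.21 CPM in GFP, and Flpo ran from 1.49 to 3.99 CPM with a median of 2.59 CPM. Again only Cre replicate 1 reached the GFP range. The log2 fold change of -0.92 in Cre against GFP (SE 0.27, adjusted p = 0.0396) was lost without GFP replicates 1, 2, 4 or 5, Cre replicates 2, 3 or 5 or Flpo replicates 2 or 6. Lox itself had at most 0.661 CPM in any library and was not called.

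Adamts2 is at chr11:50602084-50807573 (plus strand). Flpo libraries ran from 4.99 to 9.30 CPM with a median of 6.65 CPM, Cre libraries had 6.51, 3.05, 3.17, 4.21 and 3.88 CPM, and GFP libraries had 7.38, 5.94, 5.32, 7.04 and 6.22 CPM. Cre replicate 1 stood with the Flpo and GFP libraries and the other 4 below them. Its log2 fold change was 0.70 in Flpo against Cre (SE 0.20, adjusted p = 0.0263), lost without Cre replicates 2, 3 or 5 or Flpo replicates 4, 5 or 6. In Cre against GFP it was -0.61 (SE 0.21, adjusted p = 0.0727), and -0.83 and called without Cre replicate 1. The 4 enzymes summed to 8.25 to 16.8 CPM in Flpo, 6.10 to 12.7 CPM in Cre and 11.97 to 15.8 CPM in GFP.

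No ligand or receptor of TGF-beta was called in any comparison. Of all genes, 13.7% were called in Flpo against Cre, 9.55% in Cre against GFP and 0.0288% in Flpo against GFP. With 5 genes, a count of 0 does not set this list apart from all genes. Only Tgfb2 reached an unadjusted p under 0.05, in Cre against GFP and in Flpo against GFP, and DESeq2 called it in the first and limma-voom in neither. Tgfb1, the main ligand in fibrosis, had 4.50 to 9.89 CPM in Flpo, 5.92 to 7.22 CPM in Cre and 5.13 to 9.32 CPM in GFP, with log2 fold changes of -0.02, -0.01 and 0.01 in Flpo against Cre, Flpo against GFP and Cre against GFP. The type I receptor Tgfbr1 had 16.5 to 24.0, 19.6 to 22.3 and 13.1 to 21.5 CPM in Flpo, Cre and GFP. The type II receptor Tgfbr2 had 32.4 CPM in Cre replicate 5, beside 13.4 to 16.8 CPM in the other Cre libraries, 15.0 to 27.1 CPM in Flpo and 15.0 to 28.7 CPM in GFP. Without that library its log2 fold change in Cre against GFP was -0.56 (adjusted p = 0.0594), against -0.25 with it. Tgfb2 stood at -1.996 in Cre against GFP (SE 0.71, adjusted p = 0.0840), with 0.215 to 0.392 CPM in Cre and 0.602, 4.16, 0.278, 0.456 and 1.04 CPM in GFP. Without GFP replicate 2 that value was -0.85 (adjusted p = 0.427). Tgfb3 was also low, at 0.186 to 1.86 CPM over all libraries.

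Genes of the same pathways outside the 40 were read from 5 lists chosen with earlier results of these data known. In Flpo against GFP edgeR and limma-voom called 0 genes of any of them and DESeq2 1 (Spon2, at -1.40 with an adjusted p of 0.00616), with 3, 2, 2, 0 and 1 at an unadjusted p under 0.05 for TGF-beta signalling, basement membrane, matrix proteins, matrix enzymes and stellate genes. Of 24 further genes of TGF-beta signalling, 1 was higher and 1 lower in Flpo against Cre, and 3 were higher and 0 lower in Cre against GFP. That is 8.33% and 12.5% of the list, against 13.7% and 9.55% of all genes. The 3 higher in Cre than in GFP were inhibitors of SMAD signalling. Other inhibitors or corepressors of the list, Smad6, Bambi and Tgif1, were not called there. They stood at 0.27, 0.38 and 0.32 (adjusted p = 0.346, 0.238 and 0.333). Smad7 had 14.4 ± 6.05 CPM in Cre and 7.44 ± 1.27 CPM in GFP (SD, n = 5 each; log2 fold change 0.95, adjusted p = 0.0255). Skil stood at 0.77 (adjusted p = 0.0359) and Ski at 0.42 (adjusted p = 0.0416). Smad7 lost its call without Cre replicate 1 or GFP replicates 1, 2 or 5, and Skil without Cre replicates 1 or 5 or GFP replicates 2, 3 or 5. Ski lost it without Flpo replicate 3, Cre replicates 2, 3 or 4 or GFP replicates 2, 3, 4 or 5, and none of the 3 held on the TPM scale or with the clock score. In Flpo against Cre the corepressor Tgif1 was lower at -0.71 (adjusted p = 0.0153) and the TGF-beta-induced matrix protein Tgfbi higher at 0.43 (adjusted p = 0.0381). Tgif1 held with each library left out but not on the TPM scale, and Tgfbi held in 8 of the 16 such fits, lost without Flpo replicates 3 to 6, Cre replicates 3 or 4 or GFP replicates 1 or 2.

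Of 15 further basement membrane and microfibril genes, the 3 chains of collagen VI moved together. Col6a1, Col6a2 and Col6a3 had log2 fold changes of 0.67, 0.72 and 1.39 in Flpo against Cre (adjusted p = 0.0188, 0.0230 and 0.00154) and -0.71, -0.78 and -0.91 in Cre against GFP (adjusted p = 0.0210, 0.0240 and 0.0353). Col6a3 averaged 10.53 ± 3.11 CPM in Flpo (SD, n = 6), 4.03 ± 1.24 CPM in Cre and 7.57 ± 2.03 CPM in GFP. The list held 4 calls of 15 in each of these comparisons, with Nid2 (nidogen-2, a basement membrane linker) as the exception in direction. That is 26.7% of the list in each, against 13.7% and 9.55% of all genes. Nid2 averaged 1.71 ± 0.486 CPM in Flpo, 6.29 ± 2.87 CPM in Cre and 2.13 ± 0.771 CPM in GFP, at -1.87 in Flpo against Cre (adjusted p = 0.000423) and 1.56 in Cre against GFP (adjusted p = 0.00388). With the clock score no Nid2 or collagen VI call held. Fits of only the groups compared lost Col6a1 and Col6a2 in Flpo against Cre and Col6a3 in Cre against GFP. A block for replicate number lost Col6a1 in the first comparison and Col6a3 in the second, and limma-voom lost Col6a3 in the second. The Nid2 calls held with each library left out. In Flpo against Cre the Col6a3 call held likewise, Col6a1 was lost without Cre replicate 2 or Flpo replicate 5, and Col6a2 without Cre replicates 3 or 5 or Flpo replicates 4 to 6. In Cre against GFP Col6a1 was lost without Cre replicate 2 or GFP replicate 1, Col6a2 without Cre replicates 3 or 5 or GFP replicates 1 or 2, and Col6a3 without Cre replicates 1, 3, 4 or 5 or GFP replicates 1 to 4.

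The list of matrix enzymes outside the 40 also holds Pcolce, an enhancer, and Serpinh1, a chaperone. Of its 16 tested genes, 6 were higher in Flpo than in Cre, 0 lower, and 3 were lower in Cre than in GFP. That is 37.5% and 18.8% of those tested, against 13.7% and 9.55% of all genes called in either direction. Pcolce, the enhancer of procollagen C-proteinase, averaged 6.83 ± 1.12 CPM in Flpo, 4.30 ± 0.916 CPM in Cre and 6.97 ± 0.716 CPM in GFP, at 0.66 in Flpo against Cre (adjusted p = 0.00867) and -0.69 in Cre against GFP (adjusted p = 0.0122). Tgm2, a transglutaminase, averaged 122 ± 8.35, 96.0 ± 10.6 and 132 ± 15.7 CPM in Flpo, Cre and GFP. It was at -0.46 in Cre against GFP (adjusted p = 0.00614), and this was the companion gene still called with the clock score (adjusted p = 0.0332). Mmp19, a secreted metalloprotease, stood at 0.46 in Flpo against Cre (adjusted p = 0.0243) and -0.44 in Cre against GFP (adjusted p = 0.0468). P4ha1, Serpinh1 and Adamts5, a prolyl hydroxylase subunit, a collagen chaperone and an aggrecanase, were higher in Flpo than in Cre at 0.89, 0.65 and 0.83 (adjusted p = 0.0212, 0.0313 and 0.0360). In Flpo against Cre, P4ha1 was lost without Cre replicates 2 or 3 or Flpo replicates 4 or 6, and Serpinh1 without Cre replicates 3 or 5 or Flpo replicates 1, 4, 5 or 6. Adamts5 was lost without Cre replicates 2, 3 or 5 or Flpo replicates 2, 4, 5 or 6, Mmp19 without Cre replicates 1 or 5 or Flpo replicate 4, and Tgm2 without Cre replicate 1 or Flpo replicate 5. In Cre against GFP, Mmp19 kept its call only without Flpo replicate 4, Cre replicates 2 or 3 or GFP replicate 2. Pcolce held in both comparisons with each library left out. In Flpo against Cre the replicate block lost Pcolce, Serpinh1, Mmp19 and Tgm2. Fits of only the groups compared lost Serpinh1 and Adamts5 there. In Cre against GFP Mmp19 was lost with the block, limma-voom and fits of only the groups compared, among other settings.

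Of 16 tested matrix proteins outside the 40, 0 were called in Cre against GFP, against 9.55% of all genes. There, 4 were lower at an unadjusted p under 0.05, and DESeq2 called 1 and limma-voom 0. In Flpo against Cre, Prelp, a relative of lumican, was higher at 0.42 (adjusted p = 0.0456) and Spon2 lower at -1.38 (adjusted p = 0.00981). Together they are 12.5% of those tested, against 13.7% of all genes. Of 14 tested further stellate genes, 0 were called in Cre against GFP, against 9.55% of all genes (2 at an unadjusted p under 0.05, and DESeq2 1 and limma-voom 0). Bmp5, a bone morphogenetic protein, was higher in Flpo than in Cre at 0.50 (adjusted p = 0.0473). In Flpo against Cre 5 of the 14 had an unadjusted p under 0.05, and DESeq2 called 4 and limma-voom 1. The edgeR call there is 7.14% of those tested, against 13.7% of all genes. Of these last 3, Spon2 held its call with each library left out, Bmp5 held only without Flpo replicate 2, Cre replicates 4 or 5 or GFP replicates 3 or 4, and Prelp only without Flpo replicates 1 or 2 or Cre replicates 4 or 5.

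**Figure D5:**
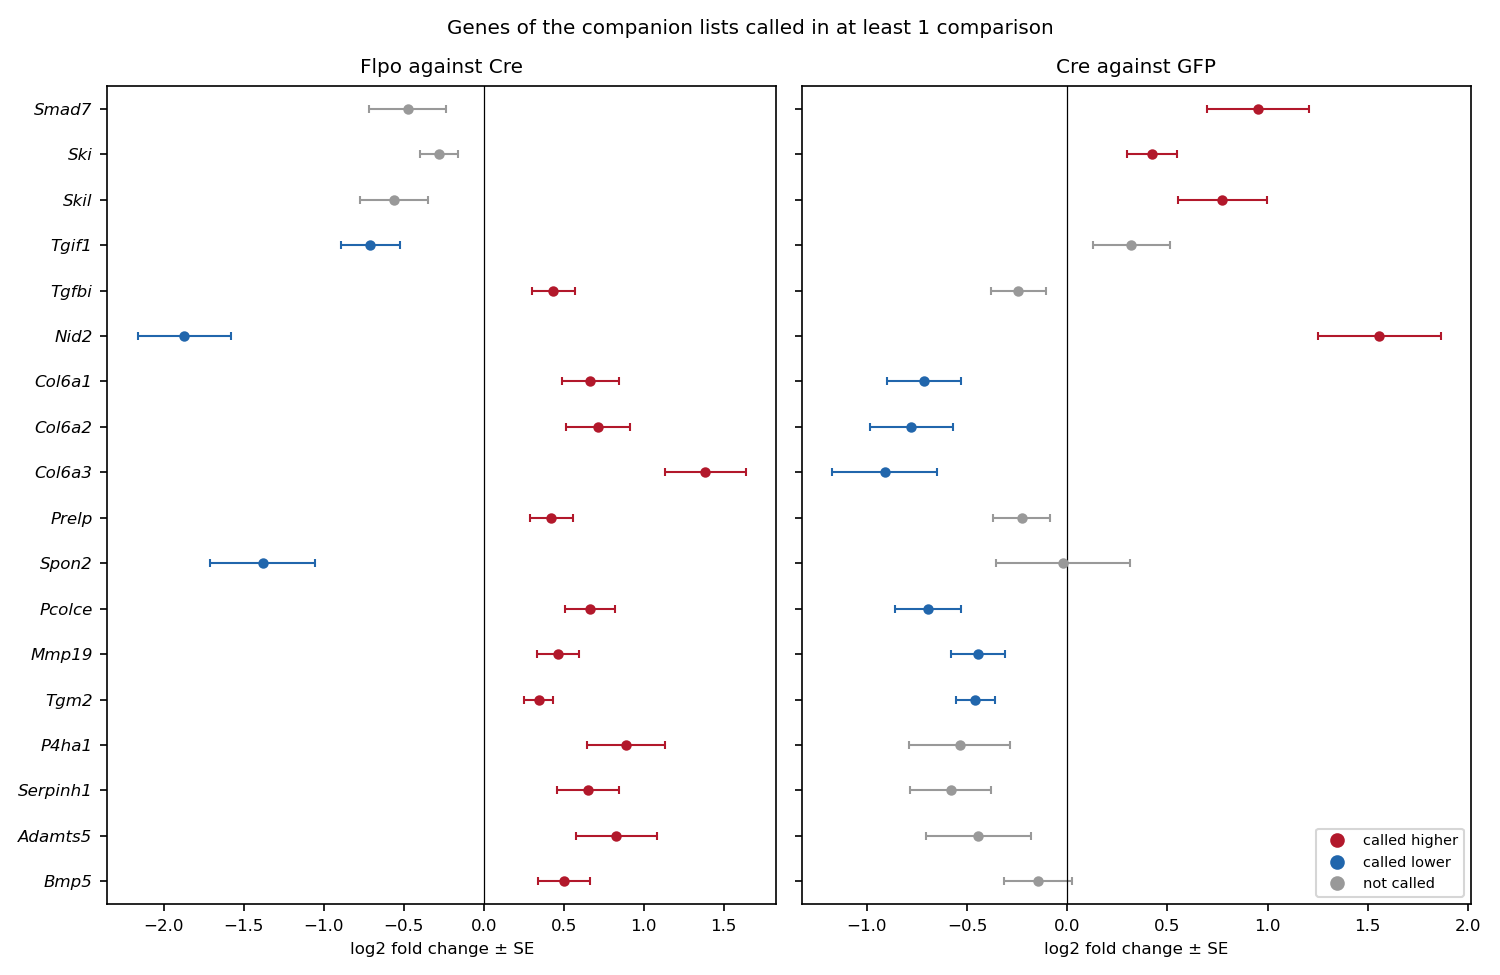
Log2 fold change with its SE for the 18 companion genes called in at least 1 comparison, in Flpo against Cre and in Cre against GFP. Red and blue mark genes called higher and lower. The collagen VI chains lie right of 0 in Flpo against Cre and left of it in Cre against GFP, and Nid2 lies on the other side in both.

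Some markers of other liver cells were called in the same comparisons as these genes. Of all genes, 13.7% were called in Flpo against Cre and 9.55% in Cre against GFP. The 8 portal fibroblast markers summed to 50.0 to 72.7 CPM in Flpo, 29.1 to 48.4 CPM in Cre and 51.4 to 87.0 CPM in GFP, so every Cre library was below all others. Most of that sum was Gas6, a ligand of TAM receptors that other liver cells also make, at 50.7 ± 8.21, 30.8 ± 8.76 and 61.3 ± 11.9 CPM in Flpo, Cre and GFP. Gas6 was at 0.72 in Flpo against Cre (adjusted p = 0.0112) and -0.995 in Cre against GFP (adjusted p = 0.00260), while Entpd2 was at 0.79 in Flpo against Cre (adjusted p = 0.0285). Gli1 was at 0 in every GFP library. Of the 8, 5 were tested, with 2 higher in Flpo than in Cre (40%) and 1 lower in Cre than in GFP (20%). The 5 mesothelial markers summed to 3.20 to 7.25 CPM in Flpo, 2.42 to 6.29 CPM in Cre and 4.95 to 14.2 CPM in GFP, with Wt1 lower in Cre than in GFP (-1.90, adjusted p = 0.0143). The 7 sinusoidal endothelial markers summed to 66.1 to 120 CPM in Flpo, 105 to 131 CPM in Cre and 82.02 to 104 CPM in GFP, with the VEGF receptor Kdr lower in Flpo than in Cre (-0.61, adjusted p = 0.00695) and higher in Cre than in GFP (0.52, adjusted p = 0.0316).

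The 6 Kupffer cell markers summed to 67.9 to 204 CPM in Flpo, 75.0 to 128 CPM in Cre and 70.1 to 132 CPM in GFP. All 6 lay above 0 in Flpo against Cre, with a median log2 fold change of 0.57, though edgeR and limma-voom called 0 and DESeq2 1, and 2 had an unadjusted p under 0.05. The 5 cholangiocyte markers summed to 29.1 to 75.8 CPM in Flpo, 21.5 to 47.0 CPM in Cre and 34.7 to 45.4 CPM in GFP, and 1 of 4 tested, the matricellular protein Spp1, was higher in Flpo than in Cre (0.71, adjusted p = 0.0478). The 6 recruited macrophage markers summed to 42.6 to 66.3 CPM in Flpo, 44.3 to 56.3 CPM in Cre and 47.0 to 74.4 CPM in GFP. Of these, the tetraspanin Cd9 was lower in Flpo than in Cre (-0.89, adjusted p = 0.0250). Cd9 alone lay below 0 in Flpo against Cre. The others lay above 0 and were not called, and the 6 had a median of 0.28 there. The hepatocyte marker Apoa1, an apolipoprotein of HDL, was lower in Flpo than in Cre (-0.89, adjusted p = 0.000346) and higher in Cre than in GFP (0.50, adjusted p = 0.0326), and Ttr, the transthyretin carrier, was lower in Cre than in GFP (-0.35, adjusted p = 0.0298). The part of these cells in the members' values was not tested.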

How the data were processed

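RNA of 16 liver libraries was sequenced in pairs of 150 bases. Per the submitters' processing notes, cutadapt and STAR were used with mm10; which program counted reads, on which annotation and with which strand setting is not given in the sources used here. The authors deposited estimated counts per gene (31.7% of values not whole) and TPM, which is scaled for gene length. Reads shared by overlapping or near-identical genes may have been split.

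After rounding, the estimated counts went into edgeR 4.0.16 (R 4.3.3): filterByExpr with a minimum count of 10, TMM factors, 1 robust quasi-likelihood fit over 16 libraries, group as the only term, and Benjamini-Hochberg adjustment over 13905 genes. Genes were called at an adjusted p under 0.05. Each standard error is the log2 fold change divided by the square root of F. CPM use TMM factors. The fit was tested on simulated data. None of the 35 pairs of libraries within a group looked like 1 library deposited again.

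The 40 members, the other lists, the motifs and the alternatives were chosen with earlier results of these data known. Full statistics are given for members called in any comparison and the 3 with the smallest p in each, the others by level, range and counts; genes outside the 40 are named where called. Members named for 1 high or low library were chosen after their values were seen. Coordinates are from GENCODE vM21 on GRCm38. The alternatives were other scalings and filters, DESeq2 1.42.0, limma-voom (limma 3.58.1), fits of only the groups compared, a block for replicate number, a surrogate variable (1, by sva 3.50.0), a clock score, limma on log2(TPM + 1) and log2(TPM + 0.1), stricter thresholds and each library left out.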

Additional observations from a re-analysis of the deposited data

Results flagged for a closer look

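In 12 of 120 groups of libraries, 1 library stood far from the rest of its group for a member by Dixon's test, which chance gives in about 1 in 20 groups, or 6 here. Cre replicate 1 was high for Pdgfrb (8.94 CPM) and Vim (22.5 CPM), Cre replicate 3 for Tagln (7.05 CPM) and Cre replicate 5 for Tgfbr2 (32.4 CPM), while Cre replicate 5 was low for Timp1 (0.196 CPM). Flpo replicate 1 was high for Fn1 (1767 CPM) and Flpo replicate 4 for Tagln (6.56 CPM) and Tgfb2 (1.24 CPM). GFP replicate 5 was high for Acta2 (7.39 CPM) and Tagln (10.02 CPM), GFP replicate 1 for Col15a1 (12.8 CPM) and GFP replicate 2 for Tgfb2 (4.16 CPM).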

How the results depend on the processing

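Among the alternatives, the stricter thresholds reused the main fit and could not change a sign. Leaving out a library of the group not compared hardly moved the members' median log2 fold change. No called member changed sign in any of 30 alternatives. Of these, Lrat, Mmp14, Col14a1 and Postn in Flpo against Cre and Mmp2 in Cre against GFP were called in 28, Lrat in Cre against GFP in 27 and Loxl1 in 24, and the other 5 member calls in 16 to 21. The members called in Flpo against Cre (7) were 13 with library totals alone, 13 and 14 with log2(TPM + 1) and log2(TPM + 0.1), 0 with the clock score, 3 at an adjusted p under 0.01, 1 at 2-fold or more, and 4 to 11 with a library left out. Those in Cre against GFP (5) were 9, 12 and 12, 0, 1, 1 and 2 to 9 under the same settings, and 3 with no filter or with only the groups compared. Flpo against GFP gave 0 members throughout.

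All genes called in Cre against GFP (1328) were 818 with only the groups compared, 277 with the clock score, 2127 and 2206 with the TPM scales, 475 at 0.01, 440 at 2-fold and 961 to 1454 with a library left out. Those in Flpo against Cre (1906) were 14 with the clock score, 881 at 0.01, 582 at 2-fold and 1458 to 2187 with a library left out. Those in Flpo against GFP (4) were 72 with DESeq2, 0 with limma-voom, the block, the clock score or 0.01, 1 with only the groups compared, 1 and 2 with the TPM scales and 0 to 15 with a library left out. Splits of higher and lower calls moved with the scaling: in Cre against GFP they were 552 and 776, but 218 and 1909 with log2(TPM + 1) and 220 and 1986 with log2(TPM + 0.1), and 300 and 1656 with library totals; in Flpo against Cre they were 1036 and 870, but 1810 and 454 with library totals, 2443 and 327, and 2504 and 327 with the TPM scales. Library totals and the TPM scales use no TMM factors, which were 0.9997 to 1.056 in Flpo, 0.898 to 0.987 in Cre and 0.988 to 1.084 in GFP. In Cre against GFP, 49.8% of all genes lay below 0 in the main fit, 68% with library totals and 73.1% with log2(TPM + 1). The cause of these shifts was not tested.

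Replicate numbers are only shared: 1 of 15 same-numbered pairs of libraries correlated above 0.1 (-0.147 to 0.114), and 3 of 15 libraries correlated best with their own number. With the replicate block, fitted without Flpo replicate 6, the member calls were 6 in Flpo against Cre (Reln lost) and 4 in Cre against GFP (Lum lost). Lox, Tgfb2 and Timp1 rest on few counts, and the SE of their log2 fold changes was 0.42 to 0.71.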
